A study of Homo sapiens with 12 samples.

Results

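Named long noncoding RNAs (lncRNAs) were followed in L-540, an established Hodgkin lymphoma cell line, through 24 hours with a histone deacetylase inhibitor, a multikinase inhibitor, or both. A gene belonged to the set when its platform symbol began with LINC or SNHG, ended in AS1, AS2, AS3, IT1 or DT after a hyphen, or began with MIR and ended in HG, and when a probe for it was detected on all 3 arrays of at least 1 group. Of 729 such symbols with a probe, 49 met the rule, among 8079 genes measured by the same filter. The set held 18 of 440 LINC genes (intergenic RNAs), 16 of 200 antisense RNAs, 6 of 51 divergent transcripts (DT), 1 of 8 intronic transcripts (IT1), 5 of 8 small nucleolar RNA host genes (SNHG) and 3 of 22 microRNA host genes (MIRHG). The members were thus chosen by their symbols and selected on the detection score of their probes, so their being detected is no finding.

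The study held 12 Illumina bead arrays of L-540 RNA, 3 for each of 4 groups. Control cells received no drug that the labels name. Givinostat, which inhibits histone deacetylases, was given at 100 nM, sorafenib, which inhibits several kinases, at 5 µM, and the combination group received both at those doses. All groups were 1 cell line in serum-containing medium, with 24 hours of exposure. The labels letter the arrays of each group A, B and C without saying whether they were separate cultures, so the p-values rest on the spread among samples that may be technical repeats.

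LncRNAs are transcripts that encode no known protein, and most are scarce. SNHG genes carry small nucleolar RNAs (snoRNAs) in their introns. The snoRNAs guide chemical modification of ribosomal RNA, and the spliced exons of many SNHG transcripts are removed by nonsense-mediated decay when ribosomes engage them. MIRHG transcripts are the precursors from which microRNAs are cut. Antisense RNAs run over or beside a gene on its other strand, and divergent transcripts start at or near the promoter of a gene and run away from it. Histone acetylation, which histone deacetylases remove, marks active promoters.

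Cell identity and array quality were checked before the results. Of 9 genes listed as markers of Hodgkin lines, 7 were measured, among them TNFRSF8 (CD30), whereas CCL17 was detected on 1 array and MIR155HG had no probe named here. CD2, CD4 and CD247 of 7 T cell markers were measured, CD3D and CD3G were detected on 0 arrays, and none of 5 B cell, 4 epithelial, 4 fibroblast or 3 endothelial markers passed the filter; of the myeloid markers CSF1R did. Combination B had the highest median raw intensity of the 12 arrays (681.1, against 418.1 to 579.3 on the others), the lowest share of detected probes (22.4%, against 24.6% to 30.9%) and the highest detection limit (7.21 on the log2 scale, against 6.61 to 6.98). Across genes, arrays correlated at 0.965 to 0.983 within groups and at 0.951 to 0.979 between them.

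Detection separated the members into a steady and an intermittent class. 22 members were detected on all 12 arrays: all 5 SNHG genes, 7 antisense RNAs, 6 LINC genes and 4 divergent transcripts. 7 more were detected throughout in 3 groups, namely FOXD2-AS1, LINC01132, LINC01210, LINC02693, MIR503HG, PRKCQ-AS1 and TAPT1-AS1. DOCK8-AS1, LINC00454, LINC00999, PSMD6-AS2 and ZEB1-AS1 were complete in 2 groups. The other 15 entered through 1 group: LINC01567, LINC02622 and MIR29B2CHG through control, LINC01162, LINC01315 and MORF4L2-AS1 through givinostat, AGPAT4-IT1, LINC00921 and TWF2-DT through the combination, and ANXA2R-AS1, KIRREL3-AS2, LINC00347, LINC02076, MIR4453HG and MRNIP-DT through sorafenib. Such a member had to be high in its group, and differences in that direction are part of the choice. At the edge of the rule, AGPAT4-IT1 entered with a lowest score of 0.954 and LINC01315 and MIR4453HG with 0.957, while JARID2-AS1 at 0.95 and CLEC12A-AS1 at 0.946 stayed out. Of the 680 named lncRNAs outside the set, 165 were detected on at least 1 array and 515 on none, SNHG8 and SNHG10 among the latter. All members that passed in the fit of 12 arrays without a replicate block belong to the 22 detected on every array.

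Promoters of 4 members that passed a test, and of SNHG4, a snoRNA host that passed none, are shown from RefSeq on assembly GRCh38.p14, each with 250 bases before the annotated start and 50 from it. 35 of the 49 members had a promoter in that table. The first 3 are snoRNA host genes, in which capitals mark a C followed by at least 4 pyrimidines at the annotated start, the letters by which terminal oligopyrimidine (TOP) transcripts are known. TOP transcripts, to which ribosomal protein mRNAs belong, are translated according to growth signals.
SNHG32 promoter, chr6:31834666-31834965, plus strand: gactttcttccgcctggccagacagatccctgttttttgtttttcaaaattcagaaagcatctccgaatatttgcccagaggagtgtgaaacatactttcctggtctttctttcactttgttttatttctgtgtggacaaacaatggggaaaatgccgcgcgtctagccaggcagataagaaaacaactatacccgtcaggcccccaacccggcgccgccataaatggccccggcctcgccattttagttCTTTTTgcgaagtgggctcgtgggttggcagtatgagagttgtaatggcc
SNHG5 promoter, chr6:85678684-85678983, minus strand: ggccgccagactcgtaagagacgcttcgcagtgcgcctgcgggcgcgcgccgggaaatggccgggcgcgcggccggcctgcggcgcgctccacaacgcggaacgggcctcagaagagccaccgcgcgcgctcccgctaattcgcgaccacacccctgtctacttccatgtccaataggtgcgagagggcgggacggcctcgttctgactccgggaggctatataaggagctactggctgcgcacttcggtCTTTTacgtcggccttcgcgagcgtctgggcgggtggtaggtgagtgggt
SNHG4 promoter, chr5:139273851-139274150, plus strand: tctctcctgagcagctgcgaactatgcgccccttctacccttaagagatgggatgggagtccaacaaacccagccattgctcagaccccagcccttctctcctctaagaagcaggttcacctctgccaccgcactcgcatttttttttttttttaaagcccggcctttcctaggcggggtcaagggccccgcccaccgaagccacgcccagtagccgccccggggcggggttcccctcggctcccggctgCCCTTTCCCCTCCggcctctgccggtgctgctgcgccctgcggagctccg
The tract covered 6 bases in SNHG32, 5 in SNHG5 and 13 in SNHG4. It was present in 3 of the 4 SNHG members with a promoter, the exception being SNHG11, in 8.57% of the 35 members and in 4.04% of all 27305 promoters.

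The other promoters shown belong to ATP2B1-AS1 and LINC01727, the members with the largest rises under the combination. Capitals in the first mark GC boxes (GGGCGG on either strand), and nothing is marked in the second.
ATP2B1-AS1 promoter, chr12:89708705-89709004, plus strand: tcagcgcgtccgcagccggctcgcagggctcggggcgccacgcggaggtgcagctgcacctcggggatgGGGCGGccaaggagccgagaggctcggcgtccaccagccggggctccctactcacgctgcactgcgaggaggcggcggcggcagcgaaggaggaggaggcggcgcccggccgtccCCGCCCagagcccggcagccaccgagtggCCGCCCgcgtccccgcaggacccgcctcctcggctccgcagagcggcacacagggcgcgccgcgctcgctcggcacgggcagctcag
LINC01727 promoter, chr20:21569774-21570073, plus strand: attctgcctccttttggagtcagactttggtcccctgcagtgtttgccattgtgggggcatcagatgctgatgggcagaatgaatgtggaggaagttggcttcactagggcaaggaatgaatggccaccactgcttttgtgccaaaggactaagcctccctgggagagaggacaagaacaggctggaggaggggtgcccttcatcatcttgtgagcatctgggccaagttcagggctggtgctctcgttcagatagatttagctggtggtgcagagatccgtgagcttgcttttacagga
The ATP2B1-AS1 window had 3 GC boxes and a GC content of 78.3%, and the LINC01727 window had 0 and 52.7%; the median promoter had 58.3%. A GC box lay in 48.6% of the members' promoters and in 44.6% of all promoters. Searched on both strands as well were CCAAT (28.6% of members, 35.7% of all), the E-box CACGTG (2.86% and 7.43%), the STAT element TTCNNNGAA (2.86% and 7.88%), the ATF4 element TGATGNAA (0% and 3.67%) and the cyclic AMP response element TGACGTCA (0% and 1.98%); motifs could overlap. These are matches of letters in windows, and binding was not measured.

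**Figure D1:**
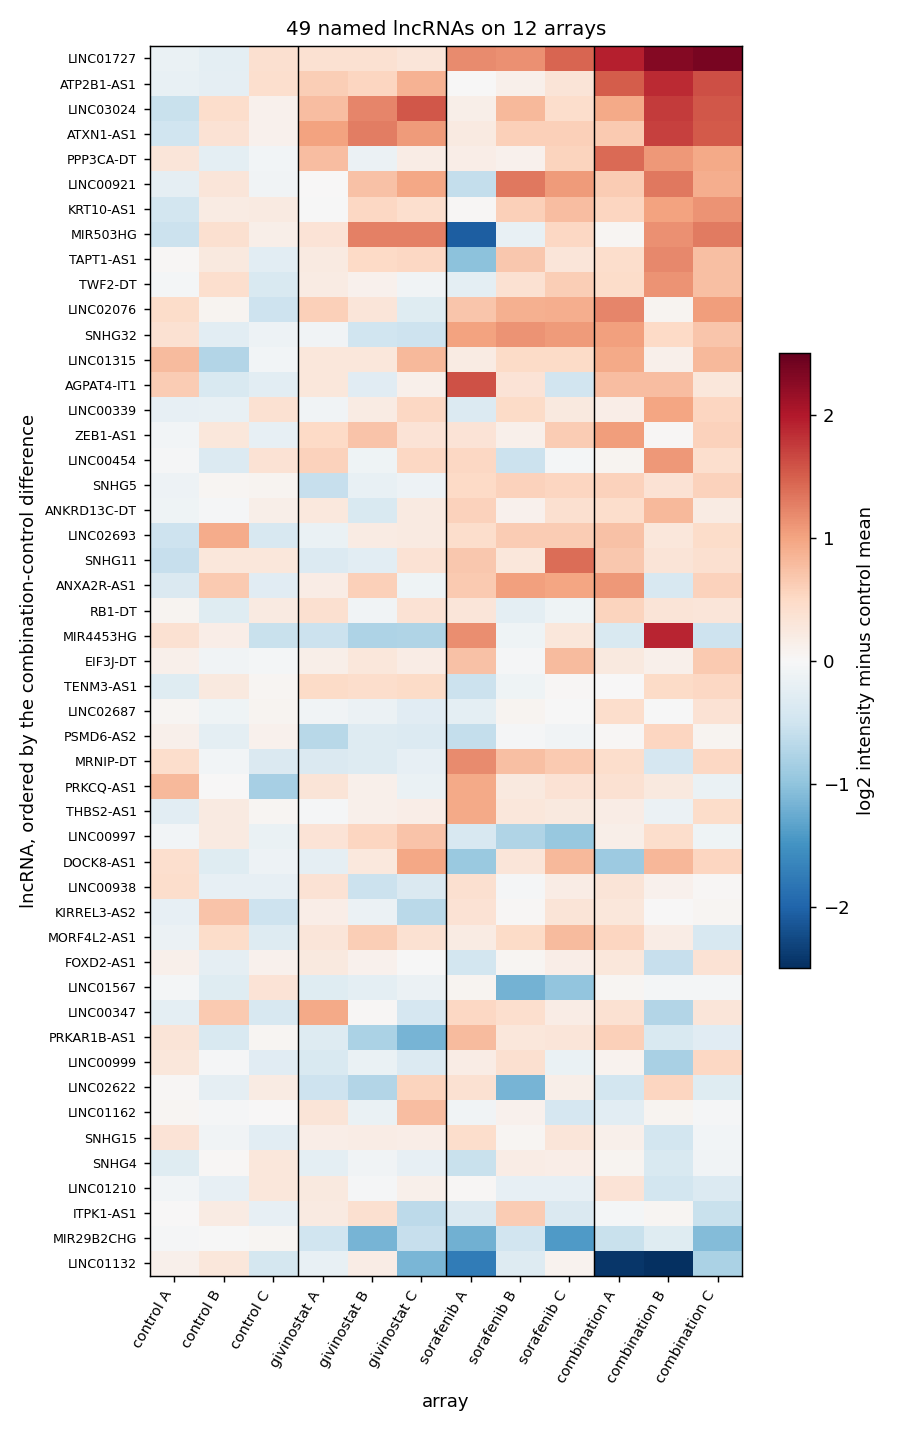
Each row is 1 of the 49 named lncRNAs and each column 1 of the 12 arrays. Colour gives the log2 intensity minus the mean of the 3 control arrays, from blue (lower) to red (higher), and rows are ordered by the mean difference between combination and control. LINC01727 and ATP2B1-AS1 are red on all 3 combination arrays, at 2.20 and 1.66 above control on average, and LINC01132 at the bottom is blue there, at -2.09.

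The first question was what each drug and their combination did to the set as a whole. Tests were limma's moderated tests over all 8079 genes, with a call at a Benjamini-Hochberg adjusted p under 0.05, and changes are log2 differences of normalized intensity ± SE with n = 3 arrays per group. In bulk RNA, fewer cells that express a gene and less of its RNA per cell cannot be told apart. Under givinostat 0 of 49 members passed, against 0.0866% of all genes; at an unadjusted p under 0.05 there were 5 higher and 3 lower members, and 12.9% of all genes. Under sorafenib 2 rose and 0 fell, where 1.94% of all genes rose and 1.44% fell. Under the combination 6 rose and 0 fell (4.02% and 2.97% of all genes). Between the combination and givinostat 4 members rose and 0 fell (0.953% and 0.73% of all genes), and between the combination and sorafenib 1 rose and 0 fell (0.186% and 0.173%).

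The members lay somewhat to the higher side in each comparison with control. The median log2 change of the 49 was 0.12 under givinostat, 0.27 under sorafenib and 0.33 under the combination, where the median of all genes was 0, 0 and -0.02. Positive changes were seen for 32, 32 and 37 of the 49, against 50%, 50% and 47% of all genes. Because members could enter through the group in which they were high, these medians and counts are descriptions; the 3 comparisons also share the control arrays. Among the 22 members detected on every array, the medians were 0.19, 0.31 and 0.44, and those of the 6506 genes so detected were 0, 0 and -0.01. The 3 combination values lay above all 3 control values for 14 members and below for 2, where 14.6% of all genes were so separated upward and 14.2% downward. Under givinostat 7 members were separated upward and 3 downward (10.5% and 8.96% of all genes), and under sorafenib 6 and 2 (13.3% and 12.3%).

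**Figure D2:**
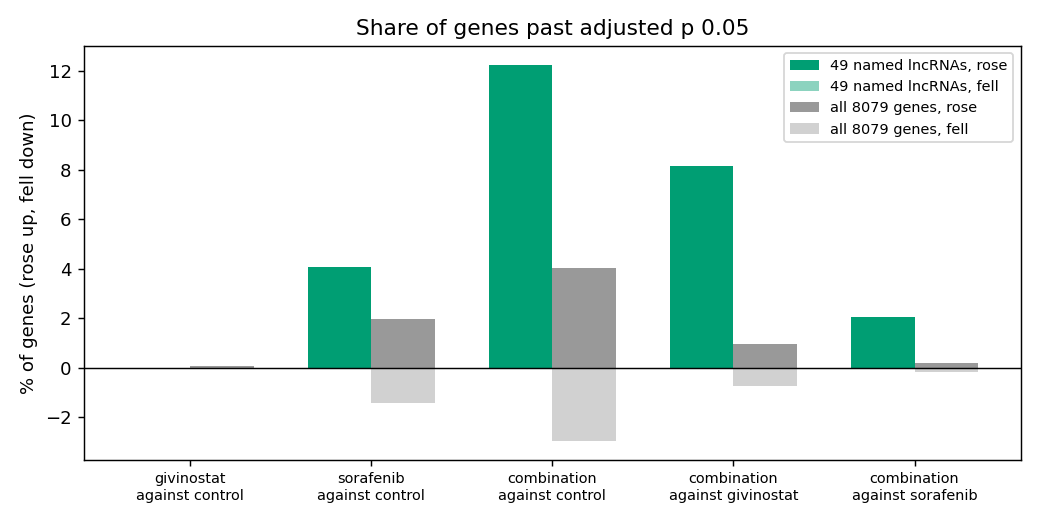
Bars give the percentage of the 49 named lncRNAs (green) and of all 8079 genes (grey) that passed an adjusted p of 0.05, upward for genes that rose and downward for genes that fell, in 5 comparisons. The green bars reach 4.08% under sorafenib and 12.2% under the combination, from 2 and 6 lncRNAs, and no green bar extends downward.

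The replicate letters changed these counts. Same-letter arrays of control, givinostat and sorafenib deviated together, so the letter was also fitted as a block. On 12 arrays the block also paired the combination arrays, whose letters matched the other groups only in part. Values given with the block are from 12 arrays unless 9 are named. With the letter as a block, 2 members rose under givinostat (ATXN1-AS1 and LINC03024), against 2.05% of all genes changed in either direction. With the block and the 9 arrays of control, givinostat and sorafenib alone there were 3, ATP2B1-AS1 being added, against 1.81% of all genes. Under sorafenib the block gave 4 that rose and 1 that fell, against 8.74% of all genes; these were LINC01727, SNHG32, SNHG5, KRT10-AS1 and, falling, LINC00997. On the 9 arrays 6 rose and 8.84% of all genes changed, with ANXA2R-AS1 and MRNIP-DT added and LINC00997 no longer past the threshold. ANXA2R-AS1 and MRNIP-DT entered the set through sorafenib alone, so that their being higher there is part of the choice. Under the combination the block on 12 arrays gave 8 that rose and 0 that fell, with SNHG5 and KRT10-AS1 added. Of all 8079 genes, 574 rose and 494 fell there with the block. Without the block, leaving out control C or sorafenib C left 1 member under sorafenib, leaving out control C or combination B left 2 under the combination, and leaving out givinostat B, givinostat C, combination A or combination C left 1, 2, 1 and 1 between the combination and givinostat. Calls over all genes with an array left out are not given here, so these drops cannot be called particular to the lncRNAs. Array median scaling and the fit with no filter on dim probes ended most calls; ATP2B1-AS1 and LINC01727 under the combination and LINC01727 between the combination and givinostat passed in both.

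Among the snoRNA host genes, SNHG32 and SNHG5 were high wherever sorafenib was present. SNHG32, which carries SNORD48 and SNORD52 in its introns, read 14.21, 13.57 and 13.70 in control, 13.75, 13.33 and 13.32 with givinostat, 14.83, 14.96 and 14.90 with sorafenib and 14.85, 14.32 and 14.53 with the combination, in log2 intensity. All 6 arrays with sorafenib lay above all 6 without it. These are values of 1 probe, and a second SNHG32 probe, detected on 2 arrays, did not pass the filter. SNHG32 rose under sorafenib by 1.07 ± 0.20 (2.10-fold, adjusted p = 0.021), under the combination by 0.74 ± 0.20 (adjusted p = 0.0481) and from givinostat to the combination by 1.10 ± 0.20 (adjusted p = 0.0226). Givinostat alone gave -0.36 ± 0.20 (adjusted p = 0.481), and combination against sorafenib -0.33 ± 0.20 (adjusted p = 0.451). The sorafenib call was lost without control B, control C or any 1 sorafenib array (adjusted p 0.0514 to 0.0935), and the combination call, just inside the threshold, without any 1 array except control A or givinostat A (0.0592 to 0.157). The call against givinostat was lost without givinostat B, givinostat C, combination A or combination C (0.0596 to 0.109).

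SNHG5, the host of SNORD50A and SNORD50B, had the same order of groups at a smaller size. Its tested probe read 12.07, 12.24 and 12.26 in control, 11.62, 12 and 12.06 with givinostat, 12.68, 12.76 and 12.73 with sorafenib and 12.77, 12.55 and 12.77 with the combination. The sorafenib and combination arrays lay above all control arrays, and the givinostat arrays below them. SNHG5 rose from givinostat to the combination by 0.80 ± 0.14 (1.75-fold, adjusted p = 0.0197), and that call was lost without givinostat B, combination A or combination C (adjusted p 0.0645 to 0.0695). Against control the changes were -0.30 ± 0.14 with givinostat (adjusted p = 0.398) and 0.53 ± 0.14 with sorafenib (adjusted p = 0.0635, or 0.0362 with the letter as a block). With the combination the change was 0.51 ± 0.14 (adjusted p = 0.0529, or 0.0323 with the block). SNHG5 was the 1 member with a second probe past the filter, and this probe gave smaller differences in the same directions: 0.19 ± 0.12 with sorafenib, 0.18 ± 0.12 with the combination and 0.30 ± 0.12 between the combination and givinostat (adjusted p 0.444, 0.42 and 0.218 over 11801 probes). The call therefore belongs to 1 of 2 probes, and under array median scaling its change against givinostat was 0.40 (adjusted p = 0.473).

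**Figure D3:**
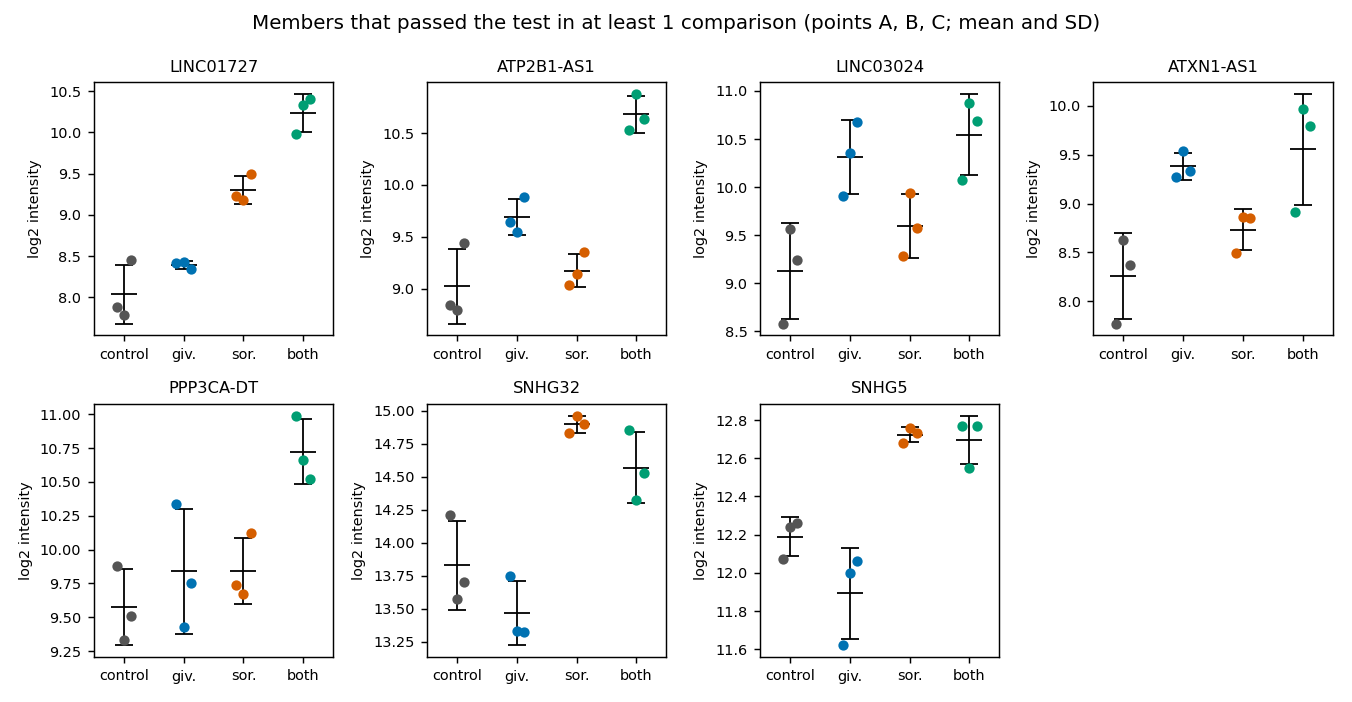
Log2 intensity of the 7 lncRNAs that passed the test in at least 1 comparison, with a point for each array (A, B, C from left to right) in control, givinostat (giv.), sorafenib (sor.) and the combination (both); bars are mean and SD. SNHG32 and SNHG5 are high with sorafenib and with both drugs, ATXN1-AS1 and LINC03024 with givinostat and with both, and LINC01727, ATP2B1-AS1 and PPP3CA-DT are highest with both.

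The other snoRNA hosts did not pass in any comparison. SNHG4, host of SNORA74A and SNORA74D, had group means of 9.59 ± 0.29 (SD, n = 3) in control, 9.41 ± 0.08 with givinostat, 9.52 ± 0.42 with sorafenib and 9.46 ± 0.23 with the combination. Its promoter carries the longest of the tracts shown above, and a relation between tract and change was not tested. SNHG11, host of SNORA71E and SNORA60, changed by 0.79 ± 0.31 with sorafenib (adjusted p = 0.195) and 0.47 ± 0.31 with the combination (adjusted p = 0.392). SNHG15, host of SNORA9, lay between -0.13 and 0.27 in the comparisons with control. The snoRNAs themselves were not measured.

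LINC01727 had the largest rise of the set. It lies on chromosome 20 between NKX2-2 and PAX1, neither of which passed the detection filter. Its values were 7.88, 7.79 and 8.45 in control, 8.42, 8.43 and 8.34 with givinostat, 9.23, 9.18 and 9.50 with sorafenib and 9.98, 10.33 and 10.41 with the combination. The sorafenib values lay above all control and givinostat values, and the combination values above all others. The rise was 1.26 ± 0.19 with sorafenib (2.40-fold, adjusted p = 0.0065), 2.20 ± 0.19 with the combination (4.59-fold, adjusted p = 0.000847) and 1.84 ± 0.19 from givinostat to the combination (adjusted p = 0.0027). Combination against sorafenib gave 0.94 ± 0.19 (adjusted p = 0.0574), and givinostat against control 0.36 ± 0.19 (adjusted p = 0.456). Its 3 calls held without any 1 array, and under array median scaling the sorafenib change was 1.35 (adjusted p = 0.054; 0.00209 to 0.054 over all settings). Without background correction the 3 changes were smaller, at 0.58, 1.19 and 1.06, and all passed.

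LINC03024 lies beside ST3GAL1, which encodes a sialyltransferase, and was high where givinostat was present. It read 8.58, 9.56 and 9.24 in control, 9.91, 10.35 and 10.68 with givinostat, 9.28, 9.94 and 9.57 with sorafenib and 10.07, 10.88 and 10.69 with the combination. The givinostat and combination arrays lay above all control arrays, and the sorafenib arrays overlapped them. A second LINC03024 probe was detected on 0 arrays and did not pass the filter. LINC03024 rose by 1.42 ± 0.30 under the combination (2.68-fold, adjusted p = 0.0216), a call lost without control A, control C, combination B or combination C (adjusted p 0.06 to 0.0727), and by 0.93 without background correction. Givinostat alone gave 1.19 ± 0.30 (adjusted p = 0.147, or 0.0126 with the letter as a block). ST3GAL1 rose under the combination by 0.77 ± 0.14 (adjusted p = 0.0133); its means were 11.13 ± 0.25 (SD) in control, 11.56 ± 0.16 with givinostat, 11.70 ± 0.08 with sorafenib and 11.89 ± 0.08 with the combination.

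The other 16 LINC members did not pass in any comparison. LINC01132 had the largest negative change: it read 9.04, 9.20 and 8.48 in control and 6.47, 5.85 and 8.12 with the combination, where 1 of 3 arrays detected it. The difference was -2.09 ± 0.60 (adjusted p = 0.0601), and it passed under 4 other ways of processing the intensities and without sorafenib A or without combination C. LINC00997 read 9.21, 9.51 and 9.12 in control, 9.62, 9.82 and 10.00 with givinostat, 8.88, 8.53 and 8.33 with sorafenib and 9.43, 9.71 and 9.18 with the combination. Its givinostat arrays lay above and its sorafenib arrays below all control arrays, with changes of 0.53 ± 0.19 (adjusted p = 0.27) and -0.70 ± 0.19 (adjusted p = 0.0731, or 0.0494 with the block and 0.0622 with the block on 9 arrays). LINC02076 was at 0.83 ± 0.33 with sorafenib (adjusted p = 0.202) and LINC00921 at 0.95 ± 0.44 with the combination (adjusted p = 0.213), both toward the group through which they entered. The remaining LINC members, LINC00339, LINC00347, LINC00454, LINC00938, LINC00999, LINC01162, LINC01210, LINC01315, LINC01567, LINC02622, LINC02687 and LINC02693, did not separate from control in any of the comparisons of a drug or the combination with it.

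ATP2B1-AS1 led the antisense RNAs. It overlaps ATP2B1, which encodes a calcium pump of the plasma membrane, and its annotated start lies 117 bases from the nearest start of that gene on the other strand. Its values were 8.84, 8.79 and 9.44 in control, 9.64, 9.55 and 9.88 with givinostat, 9.03, 9.14 and 9.35 with sorafenib and 10.53, 10.88 and 10.64 with the combination. The givinostat values lay above all control values, the sorafenib values among them, and the combination values above all others. It rose under the combination by 1.66 ± 0.19 against control (3.16-fold, adjusted p = 0.00118), by 1.00 ± 0.19 against givinostat (adjusted p = 0.0271) and by 1.51 ± 0.19 against sorafenib (2.85-fold, adjusted p = 0.014). The first of these calls held in every setting run, the second was lost without any 1 givinostat or combination array (adjusted p 0.051 to 0.113), and the third without sorafenib A, sorafenib C or combination B (adjusted p 0.0764 to 0.0882). Givinostat alone gave 0.67 ± 0.19 (adjusted p = 0.191; 0.069 with the block and 0.0498 with the block on 9 arrays), and sorafenib alone 0.15 ± 0.19. Without background correction the 3 called changes were 1.09, 0.71 and 1.01, and under array median scaling the change against givinostat was 0.57 (adjusted p = 0.311).

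Whether both drugs together gave more than the sum of their separate log2 changes was tested by the interaction. It was called for 0 of 49 members and for 0 of 8079 genes, with 7 members and 5.85% of all genes at an unadjusted p under 0.05. For ATP2B1-AS1 the interaction was 0.85 ± 0.27 (unadjusted p = 0.00847, adjusted p = 0.758) and for LINC01727 0.58 ± 0.26 (adjusted p = 0.822). No test therefore separated the combination from additive drug changes.

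ATXN1-AS1, antisense to the gene of ataxin 1, was high with givinostat. It read 7.77, 8.63 and 8.37 in control, 9.27, 9.54 and 9.33 with givinostat, 8.49, 8.86 and 8.85 with sorafenib and 8.91, 9.97 and 9.79 with the combination. The givinostat and combination arrays lay above all control arrays. It rose under the combination by 1.30 ± 0.28 (2.46-fold, adjusted p = 0.0238), a call lost without control A, control C, combination B or combination C (adjusted p 0.0626 to 0.0764), and by 0.66 without background correction (adjusted p = 0.00878). With givinostat alone the change was 1.12 ± 0.28 (adjusted p = 0.144, or 0.019 with the block). The probes of ATP2B1 and ATXN1 did not pass the filter, so neither pair could be compared.

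Among the other antisense RNAs, KRT10-AS1 read 11.13, 11.78 and 11.81 in control and 12.11, 12.58 and 12.71 with the combination. That was a change of 0.89 ± 0.26 (adjusted p = 0.0634, or 0.00174 with the block). Its sorafenib change was 0.48 ± 0.26 (adjusted p = 0.343, or 0.026 with the block). KRT10 itself, a keratin gene, changed by 0.44 ± 0.14 with the combination (adjusted p = 0.0897). TENM3-AS1 at 0.46 ± 0.20 (adjusted p = 0.352) and ZEB1-AS1 at 0.51 ± 0.25 (adjusted p = 0.414) lay above control on all 3 givinostat arrays, and PSMD6-AS2 lay below at -0.46 ± 0.20 (adjusted p = 0.368). THBS2-AS1 lay above control with sorafenib at 0.50 ± 0.22 (adjusted p = 0.233), and TAPT1-AS1 with the combination at 0.80 ± 0.37 (adjusted p = 0.211). ANXA2R-AS1 changed by 0.89 ± 0.37 with sorafenib, with overlapping arrays (adjusted p = 0.217, or 0.0378 with the block on 9 arrays). DOCK8-AS1, FOXD2-AS1, ITPK1-AS1, KIRREL3-AS2, MORF4L2-AS1, PRKAR1B-AS1 and PRKCQ-AS1 overlapped control in all 3 comparisons with it, as did AGPAT4-IT1.

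PPP3CA-DT was the divergent transcript that passed. It lies beside PPP3CA, the gene of a catalytic subunit of calcineurin, and the annotated spans do not overlap. Its values were 9.88, 9.33 and 9.51 in control, 10.34, 9.43 and 9.75 with givinostat, 9.74, 9.67 and 10.12 with sorafenib and 10.99, 10.66 and 10.52 with the combination. All 3 combination values lay above the 9 others. It rose under the combination by 1.15 ± 0.24 (2.22-fold, adjusted p = 0.0209), and the call was lost without control B, control C, combination A or combination B (adjusted p 0.0535 to 0.0816). Each drug alone gave 0.27 ± 0.24. PPP3CA changed by 0.49 ± 0.20 with the combination (adjusted p = 0.156), its 3 values lying above those of control. TWF2-DT at 0.78 ± 0.26 with the combination (adjusted p = 0.0955) and MRNIP-DT at 0.86 ± 0.27 with sorafenib (adjusted p = 0.106, or 0.0341 with the block on 9 arrays) lay above control toward the group through which each entered, while EIF3J-DT, detected on every array, lay above control with givinostat at 0.21 ± 0.21 (adjusted p = 0.749). ANKRD13C-DT and RB1-DT changed by 0.49 ± 0.21 and 0.40 ± 0.20 with the combination (adjusted p = 0.19 and 0.245).

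Of the 23 members whose symbol names a partner gene, 16 had that partner measured, and for 16 of the 23 the annotated spans of lncRNA and partner overlap. Under sorafenib 2 of the 16 partners fell and 0 rose, and under the combination 3 fell and 1 rose, where 1.44% of all genes fell and 1.94% rose under sorafenib and 2.97% fell and 4.02% rose under the combination. MORF4L2, a subunit of a histone acetyltransferase complex, fell by 0.67 on the log2 scale with sorafenib (SE 0.10, adjusted p = 0.00817) and by 0.40 with the combination (adjusted p = 0.0453). PRKCQ, a protein kinase C of T cells, fell by 0.78 with sorafenib (adjusted p = 0.0422) and by 0.81 with the combination (adjusted p = 0.024). PRKAR1B, of the regulatory part of protein kinase A, read 7.93, 8.93 and 9.34 in control and 6.00, 5.90 and 7.37 with the combination, where 1 of 3 arrays detected it, and it fell by 2.31 (SE 0.45, adjusted p = 0.0158). The other 2 combination arrays were below detection, and without background correction the change was -0.79 (adjusted p = 0.00567); the cause of the smaller value was not tested. ANXA2R, the annexin A2 receptor gene, rose by 0.88 ± 0.21 with the combination (adjusted p = 0.0332). Its change with sorafenib was 0.56 ± 0.21 (adjusted p = 0.173, or 0.0413 with the letter as a block). On the 9 arrays without the combination, the block also gave lower PRKAR1B under givinostat and sorafenib (adjusted p = 0.0398 and 0.0209) and lower ANKRD13C under sorafenib (adjusted p = 0.0447).

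Without the block, none of the antisense RNAs of these 4 genes passed in the same comparisons. With the block on the arrays without the combination, ANXA2R and ANXA2R-AS1 both rose under sorafenib (adjusted p = 0.0399 and 0.0378). With the block on all arrays ANXA2R-AS1 did not pass there (adjusted p = 0.217). ANXA2R-AS1 entered the set through sorafenib alone, so its being higher there is part of the choice. Under the combination, MORF4L2-AS1 changed by 0.10 ± 0.27, PRKCQ-AS1 by 0.17 ± 0.35, PRKAR1B-AS1 by -0.03 ± 0.30 and ANXA2R-AS1 by 0.42 ± 0.37. Under sorafenib, MORF4L2-AS1 was at 0.49 ± 0.27 and PRKCQ-AS1 at 0.52 ± 0.35 (adjusted p = 0.343 and 0.457). The difference between the changes of a lncRNA and of its partner was not tested. Probe sequences were not used here, so whether the probes of an overlapping pair read separate strands was not tested. The combination calls of PRKAR1B, PRKCQ and ANXA2R were lost without control B, control C or combination B, and those of PRKCQ and ANXA2R also without combination A and, for ANXA2R, combination C (adjusted p 0.0554 to 0.114). The PRKCQ call under sorafenib held without combination A but not without any other 1 array (0.0528 to 0.142), and the MORF4L2 call under the combination not without any 1 array (0.0601 to 0.151); the MORF4L2 call under sorafenib held without any 1 array.

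**Figure D4:**
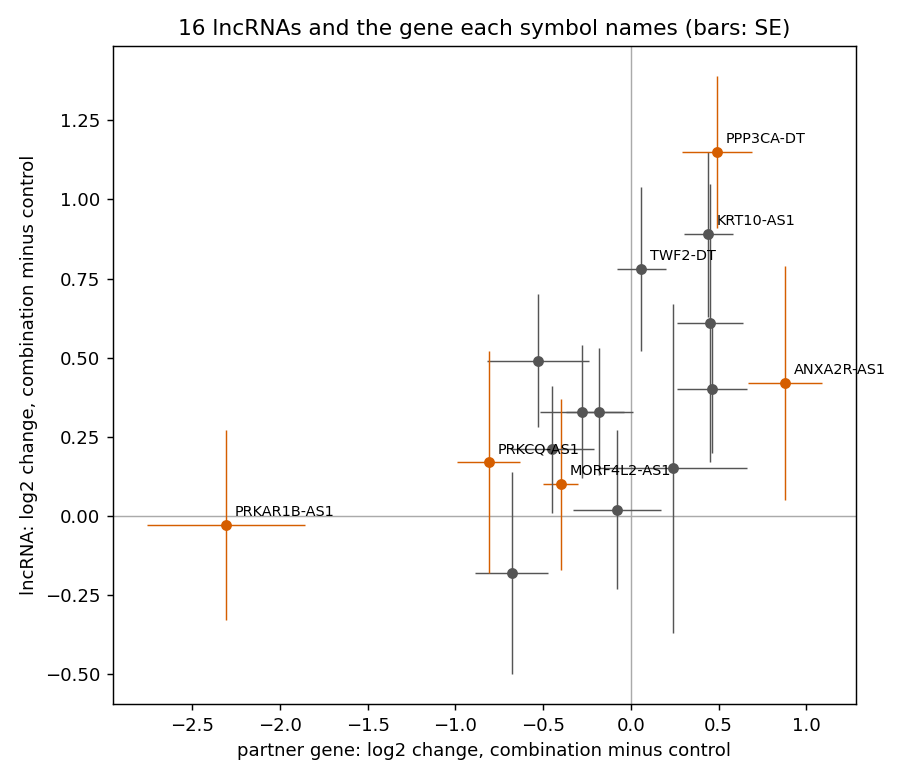
Each point is 1 of 16 lncRNAs whose named partner was measured, with the partner's log2 change between combination and control on the horizontal axis and the lncRNA's own on the vertical axis; bars are SE, and orange marks pairs in which either gene passed the test. PRKAR1B-AS1, PRKCQ-AS1 and MORF4L2-AS1 sit near 0 on the vertical axis while their partners are at -2.31, -0.81 and -0.40; the PRKAR1B value rests on combination arrays of which 1 of 3 detected it.

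Neighbours of SNHG5 and SNHG32 had other values. The measured neighbours of SNHG4, SNHG11 and SNHG15 (SIL1, PAIP2, MATR3, RALGAPB, MYO1G and CCM2) passed in no comparison. SYNCRIP, an RNA-binding protein gene beside SNHG5, fell by 0.95 on the log2 scale with the combination (SE 0.25, adjusted p = 0.0443), a call lost without any 1 control array, givinostat C, sorafenib B, combination A or combination B (adjusted p 0.0612 to 0.142). HSPA1B, which encodes an inducible heat shock protein and flanks SNHG32, changed by -0.82 ± 0.23 with sorafenib (adjusted p = 0.0792, or 0.012 with the block). NEU1, the sialidase gene on the other side of SNHG32, was at -0.03 ± 0.22 with sorafenib.

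The microRNA host genes are shown with the microRNAs cut from them, with sequences from RefSeq on GRCh38.p14 and the seed, bases 2 to 8, in capitals, because the seed sets which messages a microRNA binds. MiR-29c-3p and miR-29b-3p from MIR29B2CHG share the seed AGCACCA.
hsa-miR-29c-3p, chr1:207801865-207801886, minus strand: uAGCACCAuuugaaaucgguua
hsa-miR-29b-3p, chr1:207802450-207802472, minus strand: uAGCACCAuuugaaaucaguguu
hsa-miR-503-5p, chrX:134546371-134546393, minus strand: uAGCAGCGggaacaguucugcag
hsa-miR-4453, chr4:152536432-152536451, plus strand: gAGCUUGGucuguagcgguu
MIR29B2CHG read 7.07, 7.09 and 7.15 in control, 6.60, 5.93 and 6.52 with givinostat, 5.90, 6.62 and 5.68 with sorafenib and 6.55, 6.79 and 6.02 with the combination. It was detected on the 3 control arrays and, of the 9 others, on 1 sorafenib array, and all 9 lay below control, which the rule made likely since control was the group that admitted it. The changes were -0.75 ± 0.27 with givinostat (at least 1.21-fold lower), -1.03 ± 0.27 with sorafenib and -0.65 ± 0.27 with the combination (at least 1.12-fold lower), with adjusted p = 0.272, 0.0639 and 0.172; the bounds set the undetected arrays at their detection limit.

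MIR503HG, the host of miR-503, read 8.18, 9.12 and 8.87 in control, 9.06, 9.97 and 9.98 with givinostat, 6.65, 8.53 and 9.23 with sorafenib and 8.76, 9.87 and 10.02 with the combination. Every pair of groups with control overlapped, and the changes were 0.95 ± 0.59, -0.59 ± 0.59 and 0.83 ± 0.59 (adjusted p = 0.542, 0.635 and 0.424). The A array was the lowest of its group in all 4 groups. MIR4453HG, the host of miR-4453, was detected on 2 control, 0 givinostat, 3 sorafenib and 1 combination arrays, and its changes of -0.69, 0.45 and 0.34 (SE 0.56) did not pass. The microRNAs themselves were not measured.

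**Figure D5:**
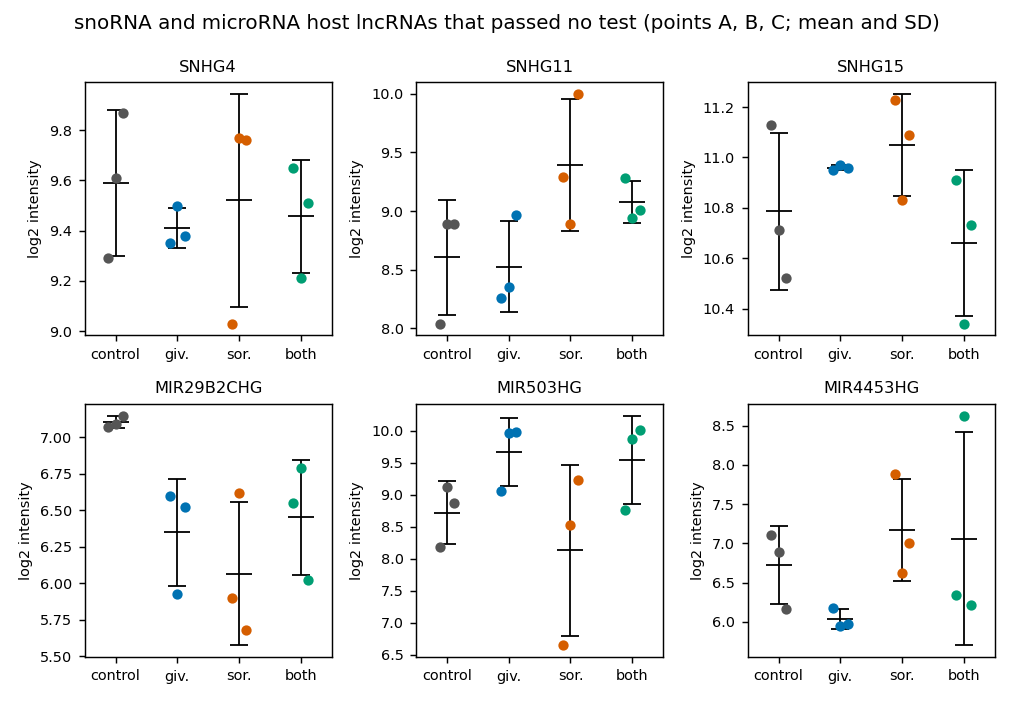
Log2 intensity of the 3 snoRNA host and 3 microRNA host lncRNAs that passed no test, with a point for each array (A, B, C from left to right) in control, givinostat (giv.), sorafenib (sor.) and the combination (both); bars are mean and SD. MIR29B2CHG lies between 7.07 and 7.15 in control and below that on every other array, and the groups of the other 5 genes overlap control under sorafenib.

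Genes that make or remove such transcripts were listed for comparison, and their counts stand against 4.02% of all genes that rose and 2.97% that fell under the combination. Of 16 nonsense-mediated decay factors, 9 were measured; EIF4A3, part of the exon junction complex, fell by 0.63 on the log2 scale under the combination (SE 0.15, adjusted p = 0.033), the other 8 did not pass, and the median of the 9 was -0.18. Of the 10 core proteins of snoRNA particles, all measured, NHP2 fell by 0.75 and NOLC1 by 0.87 under the combination (adjusted p = 0.0181 and 0.0248), and 0 rose. Their median was -0.22, against -0.02 over all genes. Changes were negative for 10 of these 10 and for 4280 of all 8079 genes. Among 21 measured protein-coding snoRNA hosts, HSPA8, a heat shock protein gene, fell by 0.78 (adjusted p = 0.00773), 0 rose, and the median was -0.03. Of the 5 SNHG members, 1 (SNHG32) rose under the combination. With 4.02% of all genes rising, 0 of 21 protein-coding hosts is near the share of all genes. The difference between these hosts and the SNHG members was not tested. Among 19 measured protein-coding microRNA hosts, 4 rose under the combination and 0 fell, with a median of 0.09: WWP2 (0.66 ± 0.12), VMP1 (0.70 ± 0.12), TLN2 (0.96 ± 0.22) and CTDSP2 (0.58 ± 0.12). WWP2 also rose under sorafenib, by 0.94 ± 0.12 (adjusted p = 0.00416). DICER1, the nuclease that frees mature microRNAs, and TNRC6B, a partner of Argonaute, were the 2 of 11 measured microRNA processing genes that rose, by 0.43 ± 0.12 and 0.58 ± 0.13 (adjusted p = 0.0497 and 0.0243). Without the block 0 genes of these lists passed under givinostat and WWP2 alone under sorafenib, where 1.94% of all genes rose and 1.44% fell. With the letter as a block VMP1 also rose under givinostat, by 0.62 (adjusted p = 0.0255), and on the 9 arrays SMC4, a condensin gene that hosts microRNAs, by 0.76 (adjusted p = 0.0477). Under sorafenib the block added rises of TLN2 (0.88, adjusted p = 0.0185) and DALRD3 (0.53, adjusted p = 0.0246). It also added falls of EIF4A3 (-0.62, adjusted p = 0.0206), NOLC1 (-0.49, adjusted p = 0.0173), TNRC6A, a partner of Argonaute (-0.71, adjusted p = 0.0454), and FBL, the methyltransferase of snoRNA particles (-0.41, adjusted p = 0.0292, but 0.0505 on the 9 arrays).

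The combination calls in those lists were lost in part when 1 array was left out. HSPA8, VMP1 and WWP2 held without any 1 array and DICER1 was lost without each of the 12 (adjusted p 0.0516 to 0.153). EIF4A3, NHP2, NOLC1, TLN2, TNRC6B and CTDSP2 were each lost without control C and without combination C, and each also without 1 to 4 other arrays (adjusted p 0.0508 to 0.108). Of 32 well-known lncRNAs with names outside the rule, 6 were measured (TUG1, DLEU1, TERC, RPPH1, PVT1 and MIAT) and 0 passed in any comparison without the block; with it MIAT passed under sorafenib (0.59 ± 0.36, adjusted p = 0.403, or 0.034 with the block), its arrays overlapping those of control. The block also called MIAT under the combination (0.94 ± 0.36, adjusted p = 0.144, or 0.0048 with the block), its 3 values lying above those of control. Between the combination and givinostat 1 of these 6 rose with the block. RPPH1 was at -0.93 ± 0.36 with sorafenib (adjusted p = 0.178).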

How the data were processed

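RNA of 12 L-540 samples was amplified to biotinylated cRNA and read on Illumina bead arrays, per the labels' protocols; the submitters' processing notes name BeadStudio without a version. The deposited table holds average bead intensity per probe, not normalized, and a fraction headed as a detection p-value, per the file headers, which rose with intensity on all 12 arrays (rank correlation 0.996 to 0.998) and was therefore taken as a detection score, 1 minus p. The deposited series matrix holds intensity values after quantile normalization (at equal rank the arrays differ by 0.276% or less) and served as an alternative; how it was made is not given in the sources used here.

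Intensities were background corrected and quantile normalized to log2 (limma 3.58.1, R 4.3.3, neqc, offset 16, with the negative controls inferred through the detection score). Probes with a score above 0.95 on all 3 arrays of at least 1 group were kept, 11801 of 48803. Of all probes, 28098 had 1 platform symbol, 13 several and 20692 none listed; the annotation may be dated. The brightest kept probe of each gene, from 10052 with a single symbol, gave 8079 genes. Of the 49 members, 40 had 1 probe on the platform and 9 more than 1. Each gene was fitted with lmFit and eBayes over all 12 arrays (4 group means, 8 residual degrees of freedom, 6 comparisons), with Benjamini-Hochberg adjustment over all genes; the step was tested on simulated data. Folds are given on the linear scale. RefSeq gene tables (GRCh38.p14), matched by Entrez identifier for 49 of 49 members, gave neighbours and spans only. The number of arrays limits precision, and neither slide nor scan was given in the sources used here.

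The members, gene lists and tests were chosen with earlier results of these data known. Named with values are members past the threshold, all SNHG and MIRHG members, per comparison with control the 10 largest rises and falls among members whose groups did not overlap, partner pairs in which either gene passed, and up to 4 list members past the threshold per list and comparison; neighbours, the other lncRNAs with values and the remaining names were chosen after their values were seen. Letters were checked for pairing by correlating deviations from group means across genes: same-letter arrays correlated at 0.326 to 0.371 (control and givinostat), 0.177 to 0.31 (control and sorafenib) and 0.274 to 0.408 (givinostat and sorafenib), and the labels state no pairing. Alternatives were the letter as a block, 2 background corrections, 2 normalizations, the series matrix, 2 filters, the mean of probes and each array left out.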

Additional observations from a re-analysis of the deposited data

How the results depend on the processing

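None of the 36 calls of named genes reversed under any of 10 other settings or 12 left-out arrays. Of the 13 calls of lncRNAs, 3 held throughout: LINC01727 under the combination against control and against givinostat, and ATP2B1-AS1 against control. Of the 23 calls of other genes, 0 held throughout. Array median scaling, which moved the median of all genes from -0.02 to -0.29 under the combination, left 0 lncRNAs under sorafenib, 3 under the combination (2 rose, and LINC01132 fell), 1 against givinostat and 0 against sorafenib; it called 96 genes in place of 565 under the combination. Without a filter on dim probes, which tests 18852 genes, 1, 2 and 1 lncRNAs were called under sorafenib, under the combination and between the combination and givinostat. A score above 0.99 on all 12 arrays, which tests 6030 genes, gave 4 under sorafenib and 2 between the combination and sorafenib. No background correction, normexp on the intensities alone and the series matrix each gave 2 between the combination and sorafenib. The replicate block gave 2 under givinostat, 5 under sorafenib and 8 under the combination. It gave 7 between the combination and givinostat and 4 between the combination and sorafenib. On the 9 arrays without the combination it gave 3 under givinostat and 6 under sorafenib. Over all 8079 genes, the block called 574 higher and 494 lower under the combination, from 325 and 240 without it. Between the combination and givinostat the block called 300 higher and 290 lower, from 77 and 59. Between the combination and sorafenib the block called 97 higher and 78 lower, from 15 and 14. It changed no call of the interaction (0 in both). The block on 12 arrays also paired the combination arrays by letter, and only the block on 9 arrays left them out. With the other groups, combination A correlated at 0.31 to 0.363, combination B at -0.139 to -0.107 and combination C at -0.0848 to 0.135. In each such pair of groups 2 of 6 arrays correlated best with their own letter, against 6 of 6 among the other 3 groups. Block values on 12 arrays therefore rest on letters that matched only in part. Leaving out 1 array gave 0 under givinostat throughout, 1 to 3 under sorafenib, 2 to 7 under the combination, 1 to 4 between the combination and givinostat and 0 to 1 between the combination and sorafenib, where sorafenib A, sorafenib C or combination B left 0. Calls over all genes are not given here for the left-out arrays, the 0.99 score, the background settings or the series matrix. Whether those shifts in count are particular to the lncRNAs was not tested. Fitted without a filter, all 729 named lncRNAs gave 1, 2, 1 and 1 that rose and 0 that fell. These counts are under sorafenib, under the combination, and for the combination against givinostat and against sorafenib. Of all 18852 genes, 0.345%, 0.939%, 0.175% and 0.0424% changed in those comparisons. Where a gene lay near the detection limit, 6.61 to 7.21 on the log2 scale, small differences could not be measured. The causes of these differences were not tested.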
